A study of Homo sapiens with 4 samples.

Results

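DTX3, its Deltex paralogs and core genes of the Notch pathway were followed in HEK293T WT and Helz-null cells. The group had 10 genes of the 27011 genes in the count table: the Deltex genes DTX1, DTX2, DTX3, DTX3L and DTX4, the receptors NOTCH1, NOTCH2 and NOTCH3, the target HES1 and the ligand JAG1. DTX3 was chosen because it had no count in either Helz-null library, so its difference is described here without a test. The other 9 genes were chosen as its family and pathway.

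RNA-Seq was done on total RNA from HEK293T cells, a human embryonic kidney line carrying the SV40 large T antigen. There were 2 biological replicates of untreated WT cells and 2 of untreated Helz-null cells, which the labels call HELZ-null. In the Helz-null line, Cas9 and a guide against an exon of HELZ, a putative RNA helicase that binds the CCR4-NOT deadenylase complex, had left a frameshifting deletion. Whether the line was grown from a single clone is not given in the sources used here, and differences between the lines that predate or accompany the editing cannot be told apart from the loss of HELZ. Libraries held 41745401 to 70464140 counts. HELZ itself had 97.7 and 101.7 CPM (counts scaled to a common library size) in WT and 36.2 and 37.1 CPM in Helz-null cells, a log2 fold change (log2FC, Helz-null over WT) of -1.44 with an SE of 0.042 (edgeR FDR 2.13e-27). Of the cell line's markers, VIM, KRT8, KRT18, NEFL and NEFM were present in all 4 libraries, but not at equal levels. NEFM rose (log2FC 0.89, edgeR FDR 1.26e-25), while KRT8 (log2FC -0.98, edgeR FDR 7.13e-15), KRT18 (log2FC -0.16, edgeR FDR 0.0016) and VIM (log2FC -0.14, edgeR FDR 2.04e-05) fell, and their part in the results for the members was not tested. Of the markers of other cells, PTPRC (leukocytes) and PECAM1 (endothelium) had at most 3 counts in any library and ALB (hepatocytes) had 6 counts in a single WT library. COL3A1 (fibroblasts) had 154 and 141 counts in WT and 95 and 158 counts in Helz-null cells.

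Notch receptors are cut by furin on their way to the cell surface, bind Delta or Jagged ligands on a neighbouring cell and are then cut by ADAM proteases and by γ-secretase. The released intracellular domain enters the nucleus, where it joins the DNA-binding protein RBPJ and a Mastermind coactivator and switches on HES and HEY repressor genes. Deltex proteins are RING-type E3 ubiquitin ligases with a shared C-terminal domain. Drosophila Deltex binds the ankyrin repeats of Notch and affects its trafficking. DTX1, DTX2 and DTX4 carry N-terminal WWE domains, which DTX3 and DTX3L lack.

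Promoter sequences were looked up for the members and for target genes, because RBPJ is known to bind sites with the core TGGGAA. RefSeq promoters (GRCh38.p14, the 250 bases before the start) were matched for 8 of the 10 members, and DTX1 and DTX3 were not matched. The sequences of HES1, a member, and of HES4, a target of the same family, are shown because both hold the longer word GTGGGAA and their RNAs were measured with different outcomes. They are written 5′ to 3′ on the strand of the gene, with TGGGAA in capitals. HES1 lies at chr3:194135898-194136147 on the plus strand, and HES4 at chr1:1000098-1000347 on the minus strand.
HES1: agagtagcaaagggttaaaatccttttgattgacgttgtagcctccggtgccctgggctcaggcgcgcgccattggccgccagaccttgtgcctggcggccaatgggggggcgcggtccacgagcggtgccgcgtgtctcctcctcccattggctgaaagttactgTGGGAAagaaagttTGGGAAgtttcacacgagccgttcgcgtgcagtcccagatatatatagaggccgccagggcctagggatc
HES4: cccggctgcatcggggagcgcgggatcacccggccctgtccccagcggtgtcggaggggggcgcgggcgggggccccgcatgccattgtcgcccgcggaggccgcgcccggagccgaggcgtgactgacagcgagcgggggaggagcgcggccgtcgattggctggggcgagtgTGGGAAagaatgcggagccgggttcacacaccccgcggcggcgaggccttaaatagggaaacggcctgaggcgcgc
The HES1 window held 2 copies of TGGGAA and 1 of GTGGGAA, and the HES4 window held 1 of each, with both strands searched and each GTGGGAA also counted as a TGGGAA. DTX2 had 1 copy of TGGGAA, and no copy was in the windows of DTX3L, DTX4, NOTCH1, NOTCH2, NOTCH3 and JAG1. Of 35116 promoters of this length, 20.85% held TGGGAA and 5.43% held GTGGGAA, so the shorter word is common.

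DTX3 had 424 and 265 counts in the WT libraries and 0 counts in both Helz-null libraries. In WT cells this was 6.61 and 6.32 CPM, with a mean of 6.46 ± 0.200 (SD, n = 2). For scale, a limit of 3 counts was set for a count of 0. This is 0.0710 CPM in the shallower and 0.0421 CPM in the deeper Helz-null library. The lower WT library was 89.0-fold above the higher of these limits. That value describes the counts of 0 for which DTX3 was chosen and is not a test. At the mean WT level, 273.1 and 460.7 counts would have been collected in the Helz-null libraries. The limits cover counting error only, and they treat counts as independent, which does not hold if both mates of a pair were counted. DTX3 lies on the plus strand of chromosome 12 at 57998405 to 58003587 (GRCh37), and its canonical transcript in GENCODE, of 2028 bases, has 58.9% GC.

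DTX3 was not a gene at the edge of detection. Per length it was in the 61.4th percentile of all genes in WT cells, with a mean of 2.90 CPM per kilobase of gene width (called FPKM). Among 13747 genes with a mean of at least 1 CPM in WT cells, only DTX3, LRRTM4 and OTX2 had 0 counts in both Helz-null libraries, and 12 genes in all had a Helz-null mean of at most 10% of the WT mean. In the other direction, 13716 genes had a mean of at least 1 CPM in Helz-null cells, and 0 of them were without counts in both WT libraries.

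The 5 genes whose ratio of Helz-null to WT mean CPM was most like that of DTX3 over the 4 libraries were LRRTM4, OTX2, ESRRG, SLC8A1 and TAL1. LRRTM4, a synaptic leucine-rich repeat protein, had 97 and 70 counts in WT cells. OTX2, a homeodomain factor of the forebrain and eye, had 92 and 44 counts in WT cells. In Helz-null cells ESRRG, an orphan nuclear receptor, kept 0.748% of its WT level, SLC8A1, a sodium-calcium exchanger, 0.962%, and TAL1, a blood-lineage bHLH factor, 1.23%. SLC8A1 had 418 and 300 counts in WT and 2 and 6 counts in Helz-null cells, so its WT level was close to that of DTX3. None of the 5 lies on chromosome 12.

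Genes on either side of DTX3 were expressed in Helz-null cells. PIP4K2C, a lipid kinase gene that ends 1204 bases before DTX3 starts, had 61.0 and 58.0 CPM in WT and 63.0 and 61.7 CPM in Helz-null cells. ARHGEF25, a guanine nucleotide exchange factor gene that starts 376 bases after DTX3 ends, had 27.6 and 25.7 CPM in WT and 34.4 and 34.0 CPM in Helz-null cells. Both neighbours were higher in both Helz-null libraries, PIP4K2C by a margin that did not pass the test (log2FC 0.063, SE 0.043, edgeR FDR 0.24). By edgeR's quasi-likelihood test with Benjamini-Hochberg adjustment over 10978 genes and the study's threshold (FDR < 0.005), 13.9% of all tested genes were up-regulated and 15.5% were down-regulated. Among the 5 tested genes on each side of DTX3, 2 of 10 were up-regulated and 1 was down-regulated. ARHGEF25 (log2FC 0.35, SE 0.057, FDR 2.73e-06) and OS9, an ER lectin gene (log2FC 0.16, SE 0.032, FDR 8.31e-05), rose. OS9 missed the threshold without Helz-null replicate 2 (edgeR, FDR 0.0076), which left 1 of the 10 genes up-regulated. B4GALNT1, a ganglioside synthase gene, fell by 0.59 on the log2 scale (SE 0.074, FDR 1.54e-08). OS9 overlaps AGAP2 on the opposite strand and AGAP2-AS1 by 2072 bases on the same strand. B4GALNT1 overlaps SLC26A10 by 2743 bases on the opposite strand. SLC26A10 was lower in both Helz-null libraries but missed the threshold (log2FC -0.41, edgeR FDR 0.013). The use of strand in counting is not given in the sources used here, so these genes may share reads. Across the 300 kb on either side, the 22 other genes with a mean of at least 1 CPM in WT cells had Helz-null values of 64.7 to 128.9% of their mean WT level.

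**Figure D1:**
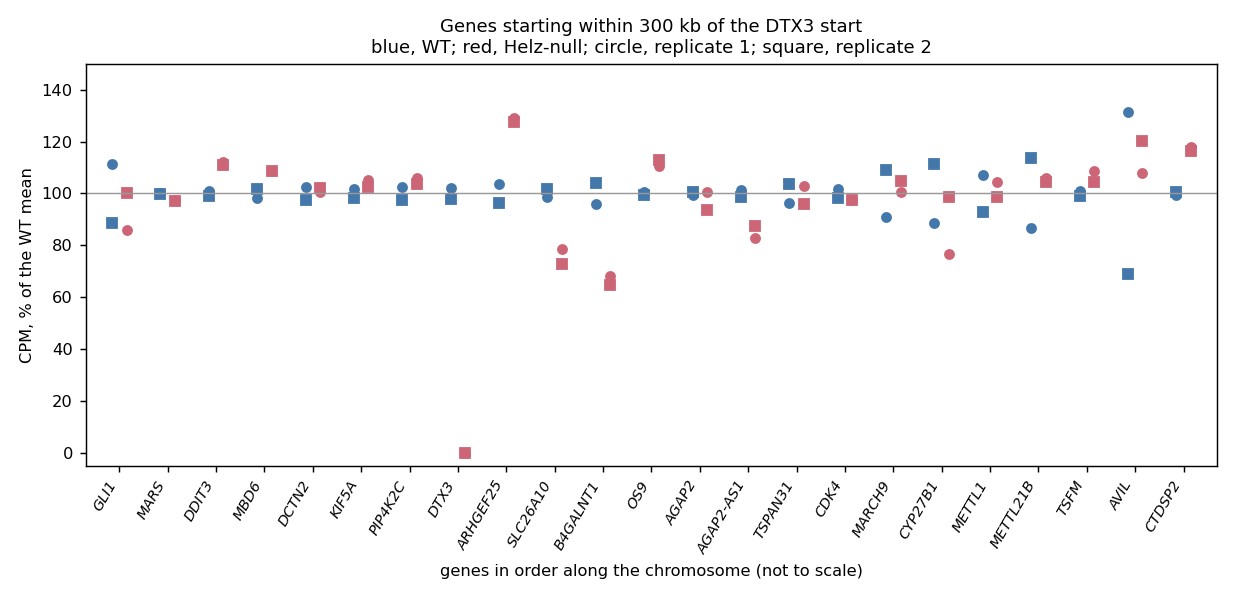
Genes within 300 kb of DTX3. The x axis lists the 23 genes with a mean of at least 1 CPM in WT cells in their order along the chromosome (not to scale), and the y axis gives the CPM of each library as a percentage of the mean WT CPM (blue, WT; red, Helz-null; circle, replicate 1; square, replicate 2). DTX3 is at 0 in both Helz-null libraries, whereas the Helz-null values of the other 22 genes are between 64.7 and 128.9%.

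None of the other Deltex genes passed the threshold, and DTX2, the most abundant of them, had overlapping groups. DTX2, a broadly expressed Deltex ligase, had 11.6 and 10.95 CPM in WT and 12.2 and 11.2 CPM in Helz-null cells. Its difference was within the spread of the libraries (log2FC 0.047, SE 0.089, 95% interval -0.13 to 0.23, edgeR FDR 0.70). DTX2 shares sequence with its partial copy DTX2P1-UPK3BP1-PMS2P11, which had 1.14 and 0.764 CPM in WT and 1.75 and 1.52 CPM in Helz-null cells. This copy was higher in both Helz-null libraries but missed the threshold (log2FC 0.73, SE 0.25, edgeR FDR 0.025 in a wider fit of 16087 genes). Reads could be split between these 2 loci in the authors' counting, and DTX2 also overlaps FDPSP2 by 897 bases on the opposite strand. DTX2 lies on the plus strand of chromosome 7 at 76090993 to 76135312 (GRCh37, as for all genes below).

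DTX1, DTX3L, DTX4 and JAG1 were outside the 10978 genes and were tested in a wider edgeR fit of 16087 genes kept by filterByExpr, in which 9.83% of genes were up-regulated and 11.5% were down-regulated. Of these 4 genes, 0 passed the threshold in this fit and 0 passed in the edgeR fit of all genes with at least 1 count. An unadjusted p under 0.05 was found for 2 of them, DTX3L and DTX4, and for 42.9% of all genes of the wider fit; DTX4 entered this fit only through its WT libraries, so its p gives no support. DTX3L, which works as a complex with the ADP-ribosyltransferase PARP9 in DNA damage and interferon responses, had 5.86 and 5.89 CPM in WT and 4.64 and 4.74 CPM in Helz-null cells. Both Helz-null libraries were lower (log2FC -0.32, SE 0.12, 95% interval -0.58 to -0.075, edgeR FDR 0.038). PARP9, which overlaps DTX3L by 240 bases on the opposite strand, had 3.02 and 2.67 CPM in WT and 2.46 and 2.34 CPM in Helz-null cells, with a log2FC of -0.26 (edgeR FDR 0.26). PARP14, a related ADP-ribosyltransferase gene, had 3 counts in 1 Helz-null library and 0 in the other 3 libraries.

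DTX1 and DTX4 were close to the limit of detection. DTX1, which is itself known as a Notch target in lymphocytes, had 19 and 24 counts in WT and 27 and 22 counts in Helz-null cells. Its groups overlapped, and its 95% interval from -0.80 to 1.01 leaves changes of either sign undetected at this depth. DTX4 had 17 and 13 counts in WT and 2 and 11 counts in Helz-null cells (log2FC -1.32, SE 0.60, edgeR FDR 0.090). DTX4 passed the filter on low counts only through the WT libraries, and it overlaps MPEG1 by 79 bases on the opposite strand. DTX1, DTX3L and DTX4 lie on plus strands, DTX1 on chromosome 12 at 113494535 to 113535833, DTX3L on chromosome 3 at 122283185 to 122294050 and DTX4 on chromosome 11 at 58938903 to 58976061. DTX1 and DTX3 share a chromosome but are far apart on it.

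With DTX3 at 0, the summed level of the 5 Deltex genes was lower per length. The sum was 8.22 and 7.97 FPKM in WT and 5.34 and 4.93 FPKM in Helz-null cells. Without DTX3 it was 5.26 and 5.13 FPKM in WT and 5.34 and 4.93 FPKM in Helz-null cells, and the groups overlapped. DTX3 made up 36.0 and 35.6% of the Deltex FPKM in the WT libraries, while the DTX2 share was 49.97 and 48.8% in WT and 81.1 and 80.9% in Helz-null cells. As the libraries were made from bulk RNA, fewer expressing cells and less RNA per cell cannot be told apart for any gene that fell.

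**Figure D2:**
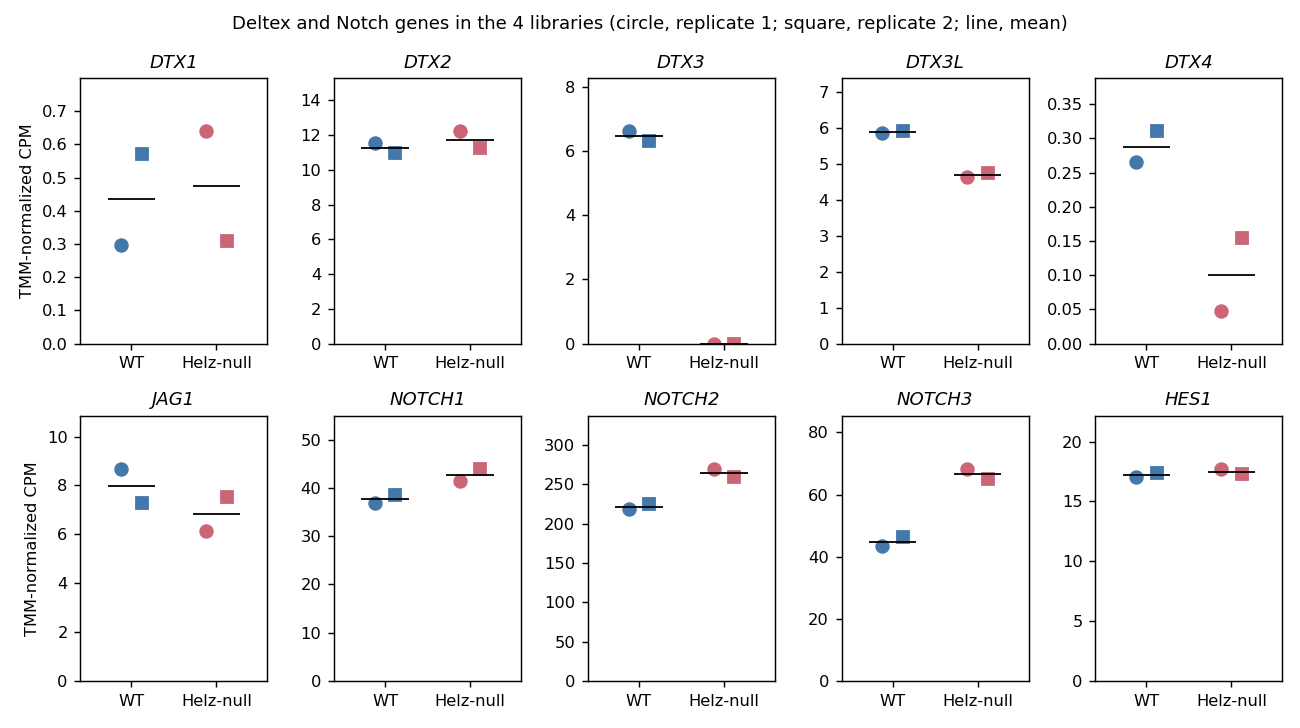
CPM of each of the 10 genes in each library. The y axis of each panel is linear and starts at 0, points are libraries (blue, WT; red, Helz-null; circle, replicate 1; square, replicate 2) and the line is the group mean. DTX3 is at 0 in both Helz-null libraries, NOTCH2 and NOTCH3 are higher in both Helz-null libraries with a clear gap, and DTX2, HES1 and JAG1 overlap.

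The 3 Notch receptors were up-regulated in Helz-null cells, with NOTCH3 changed the most. These were 3 of the 5 members other than DTX3 among the 10978 genes, read against the 13.9% of all genes that were up-regulated. None of these 5 was called down by edgeR: of them, 0 fell at an unadjusted p under 0.05, where 25.8% of all tested genes did, so that a count of 0 among 5 says little. DESeq2 called 2 of the 5 up and 0 down, and 21.8% of all tested genes in either direction. NOTCH3, the receptor best known from vascular smooth muscle and pericytes, had 43.6 and 46.2 CPM in WT and 68.3 and 65.0 CPM in Helz-null cells. Its mean was 44.9 ± 1.88 in WT and 66.7 ± 2.32 in Helz-null cells (SD, n = 2 each), a 1.49-fold increase (log2FC 0.57, SE 0.046, edgeR FDR 1.83e-13). The lowest Helz-null value lay well above the highest WT value.

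NOTCH2, the most abundant of the 3 receptors, had 217.9 and 224.9 CPM in WT and 269.6 and 258.9 CPM in Helz-null cells. The groups did not overlap, and the increase was 1.19-fold (log2FC 0.26, SE 0.030, 95% interval 0.19 to 0.32, edgeR FDR 5.43e-09). NOTCH2 shares sequence with NOTCH2NL, a partial copy, so reads could be split between them. NOTCH2NL had 16.7 and 15.1 CPM in WT and 17.8 and 18.1 CPM in Helz-null cells, and it missed the threshold (log2FC 0.17, edgeR FDR 0.066).

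NOTCH1, the receptor mutated in T-cell leukaemia, had 36.9 and 38.6 CPM in WT and 41.4 and 43.9 CPM in Helz-null cells. Both Helz-null libraries were higher, but the increase was only 1.13-fold (log2FC 0.18, SE 0.051, 95% interval 0.078 to 0.286) and its FDR of 0.0037 by edgeR was just under the threshold. In 6 of 12 alternative analyses NOTCH1 missed the threshold, among them DESeq2 (log2FC 0.18, FDR 0.023), GC correction (log2FC 0.13, FDR 0.036), edgeR without WT replicate 1 (log2FC 0.15, FDR 0.042) and edgeR without Helz-null replicate 2 (log2FC 0.13, FDR 0.126). NOTCH2 and NOTCH3 passed in all 12, with a log2FC from 0.23 to 0.29 for NOTCH2 and from 0.52 to 0.61 for NOTCH3. The canonical NOTCH1 and NOTCH3 transcripts have 63.5 and 63.1% GC, and that of NOTCH2 has 49.4%. NOTCH1 overlaps the microRNA gene MIR4673 by 59 bases on the same strand.

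The receptors lie on 3 chromosomes, and the medians of the genes around them were closer to 0 than their own log2FC. NOTCH1 is on the minus strand of chromosome 9 at 139388885 to 139440500, NOTCH2 on the minus strand of chromosome 1 at 120454176 to 120643366 and NOTCH3 on the minus strand of chromosome 19 at 15269849 to 15311806. The median log2FC of the 20 nearest tested genes was -0.0082 for NOTCH1, 0.092 for NOTCH2 and 0.021 for NOTCH3. Of these 20 genes, 1 rose and 2 fell near NOTCH1, 1 passed the threshold near NOTCH2, lower in Helz-null cells, where they span 27.5 Mb, and 6 rose and 3 fell near NOTCH3, beside 13.9% up and 15.5% down among all tested genes. For DTX3 the median of the 20 nearest was 0.033. Summed over the 3 receptors, the level was 27.8 and 28.9 FPKM in WT and 35.7 and 34.7 FPKM in Helz-null cells. The share of NOTCH3 in that sum was 19.4 and 19.8% in WT and 23.7 and 23.2% in Helz-null cells.

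**Figure D3:**
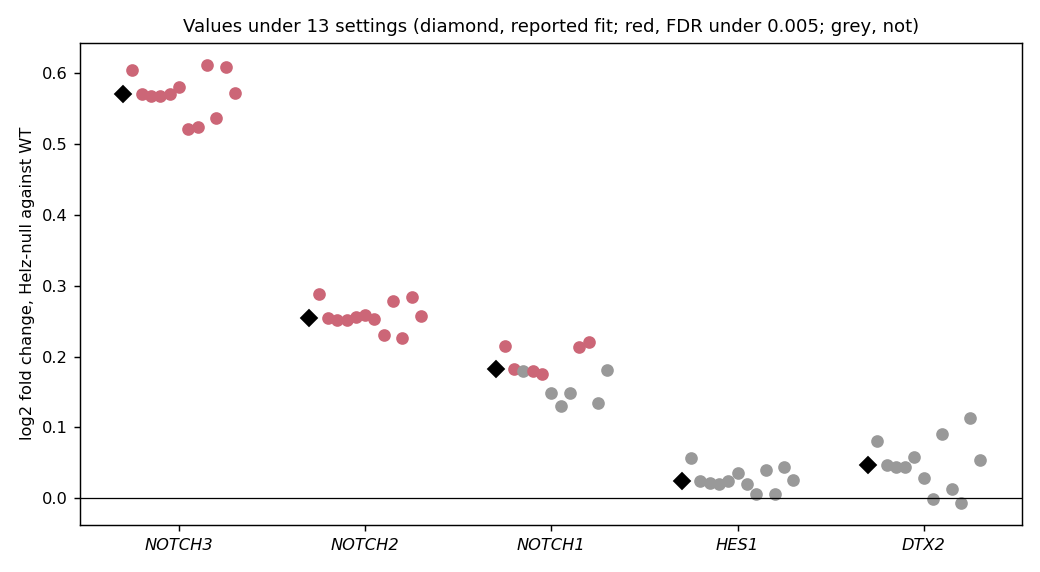
Log2FC (Helz-null over WT, y axis) of 5 members under the edgeR analysis used here (black diamond) and under 12 alternatives (points; red, FDR under 0.005; grey, not). Points are spread sideways for legibility. NOTCH2 and NOTCH3 pass the threshold throughout, NOTCH1 passes in 6 of 12 alternatives, and DTX2 and HES1 stay near 0.

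HES1, the bHLH repressor that is the classical Notch target, showed no difference. It had 17.0 and 17.4 CPM in WT and 17.7 and 17.3 CPM in Helz-null cells, and the groups overlapped. Its log2FC was 0.023 (SE 0.073, edgeR FDR 0.82), with a 95% interval from -0.12 to 0.17 that leaves out changes as large as those of NOTCH2 and NOTCH3. JAG1, a ligand of these receptors, had 8.68 and 7.28 CPM in WT and 6.13 and 7.51 CPM in Helz-null cells. These groups overlapped, and the log2FC was -0.22 (SE 0.11, 95% interval -0.45 to 0.0064, edgeR FDR 0.128 in the wider fit). HES1 lies on the plus strand of chromosome 3 at 193853937 to 193856521 and JAG1 on the minus strand of chromosome 20 at 10618332 to 10654647.

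Per length, the level in WT cells was highest for NOTCH2 with a mean of 18.7 FPKM. It was followed by HES1 with 11.8, NOTCH3 with 5.56, NOTCH1 with 4.06 and DTX2 with 3.996 FPKM. DTX3 came next with 2.90 FPKM, then JAG1 with 1.33, DTX3L with 1.02, DTX1 with 0.132 and DTX4 with 0.0491 FPKM. NOTCH1 and DTX2 were the only neighbours in this order whose ranges over the 2 libraries overlapped. In Helz-null cells the order of the other 9 genes was the same, with 22.3 FPKM for NOTCH2, 8.26 for NOTCH3, 4.59 for NOTCH1 and 4.16 for DTX2, and DTX3 moved to the end.

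The wider pathway was read from a list of 63 Notch genes by role, chosen with earlier results of these data known. Of 47 tested genes without DTX3, 10 were up-regulated (21.3%), 9 were down-regulated (19.1%) and 28 did not pass, beside 13.9% up and 15.5% down among all tested genes. The median log2FC was 0.015, against -0.00091 for all tested genes. The list thus moved in both directions, between -0.82 for PSEN2 and 0.57 for NOTCH3.

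Among ligands, 3 of 4 tested genes were down-regulated, a count too small to set against the 15.5% of all genes. DLK2, a non-canonical ligand, had 7.63 and 8.28 CPM in WT and 4.57 and 4.55 CPM in Helz-null cells (log2FC -0.80, SE 0.12, edgeR FDR 6.59e-07), and it overlaps ABCC10 by 76 bases on the opposite strand. The Delta ligand DLL1 (log2FC -0.37, SE 0.089, edgeR FDR 7.11e-04) and the Jagged ligand JAG2 (log2FC -0.26, edgeR FDR 2.87e-05) fell by less. DLL1 missed the threshold with DESeq2 (FDR 0.0061) and with edgeR without Helz-null replicate 1 (FDR 0.023) or WT replicate 2, and it overlaps FAM120B on the opposite strand. Of the receptors on the list NOTCH4 was outside the 10978 genes. It had 30 and 45 counts (0.467 and 1.07 CPM) in WT and 18 and 31 counts (0.426 and 0.435 CPM) in Helz-null cells. In the wider fit it missed the threshold (log2FC -0.77, SE 0.39, edgeR FDR 0.14). NOTCH4 overlaps GPSM3 by 681 bases on the same strand.

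Of the 9 cleavage genes, 2 rose and 3 fell, where all tested genes gave 13.9% and 15.5%. Presenilins are the catalytic subunits of γ-secretase, and PSEN2 had 48.3 and 47.2 CPM in WT and 27.8 and 26.6 CPM in Helz-null cells (log2FC -0.82, SE 0.053, edgeR FDR 3.41e-16). APH1B, a scaffold subunit, had 18.5 and 19.7 CPM in WT and 12.03 and 12.9 CPM in Helz-null cells (log2FC -0.60, SE 0.078, edgeR FDR 3.00e-08). FURIN, the protease of the first cut, fell by 0.41 (SE 0.040, edgeR FDR 3.54e-11). The other subunits PSENEN (log2FC 0.31, edgeR FDR 1.99e-05) and NCSTN (log2FC 0.23, edgeR FDR 5.60e-07) rose, so γ-secretase subunits changed in both directions. NCSTN overlaps COPA, and PSENEN missed the threshold without WT replicate 1 (edgeR FDR 0.0054).

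For PSEN2, FURIN and JAG2, the neighbouring genes were lower too. All 20 of the nearest tested genes of PSEN2 were down-regulated, with a median log2FC of -0.67. Of the 20 nearest to FURIN, 15 were down-regulated (median -0.31), and of the 17 near JAG2, 9 were (median -0.22). The part of the neighbourhood in these 3 differences was not tested. The values around APH1B and DLK2 differed from this, with medians of -0.010 and 0.023.

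In the nucleus, RBPJ had 99.3 and 109.9 CPM in WT and 115.8 and 112.8 CPM in Helz-null cells (log2FC 0.13, SE 0.038, edgeR FDR 0.0047). RBPJ missed the threshold in 6 of 12 alternatives, among them those without WT replicate 1, Helz-null replicate 1 and Helz-null replicate 2. Its log2FC was 0.055 (edgeR FDR 0.27) without WT replicate 1. SNW1, a coactivator and splicing factor that overlaps SLIRP, fell by 0.18 (edgeR FDR 4.65e-05), and the Mastermind gene MAML1 did not pass. Of 6 co-repressor genes, CIR1 (log2FC 0.27, edgeR FDR 5.35e-04) and CTBP1 (log2FC 0.20, edgeR FDR 3.25e-06) rose and the deacetylase gene HDAC2 (log2FC -0.29, edgeR FDR 1.45e-10) fell, where all tested genes gave 13.9% up and 15.5% down. CTBP1 overlaps an antisense gene, and CIR1 missed the threshold without WT replicate 2 and without Helz-null replicate 2.

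Among 7 tested target genes 2 rose, both of the HES family, beside 13.9% of all tested genes. HES4 had 44.7 and 49.3 CPM in WT and 54.7 and 57.1 CPM in Helz-null cells (log2FC 0.26, SE 0.048, edgeR FDR 3.23e-05). With GC correction its log2FC was 0.15 and it missed the threshold (FDR 0.0081). HES6, an inhibitor of HES1, had 22.4 and 22.0 CPM in WT and 28.4 and 29.6 CPM in Helz-null cells (log2FC 0.39, SE 0.061, edgeR FDR 1.88e-06). HES4 passed the threshold and HES1 did not, and the printed promoter windows of both hold GTGGGAA. The window of HES6 held no TGGGAA. HEYL, another tested target whose window held 2 copies of TGGGAA and 1 of GTGGGAA, had 17.6 and 17.9 CPM in WT and 15.5 and 17.1 CPM in Helz-null cells and did not pass (log2FC -0.11, SE 0.075, edgeR FDR 0.23). Whether the change of HES4 differs from that of HES1 was not tested, and neither was a part of these words in any change. HEY1, the most abundant HEY gene, had 203.2 and 194.8 CPM in WT and 186.7 and 191.7 CPM in Helz-null cells, with a log2FC of -0.073 (edgeR FDR 0.054). NRARP, a feedback inhibitor, had a log2FC of -0.13 (edgeR FDR 0.029).

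NUMBL, an endocytic adaptor related to the Notch inhibitor NUMB, fell by 0.24 (edgeR FDR 4.24e-04) as 1 of 8 ubiquitin and endocytosis genes, beside 15.5% of all tested genes, and it missed the threshold without Helz-null replicate 1 (edgeR FDR 0.018). Of the 3 tested glycosylation genes, 0 passed with edgeR, 0 with DESeq2 and 0 had an unadjusted p under 0.05, with a log2FC between -0.046 and 0.074, and 3 genes are too few to set against all genes.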

How the data were processed

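The deposited table holds read counts per gene, which the authors left without normalization after removing ribosomal RNA reads with Bowtie2, mapping read pairs to hg19 with TopHat2 and counting with QuasR. Versions, gene annotation, use of strand and the counting of mates are not given in the sources used here. The count totals of all libraries exceed the mapped reads that the paper gives, so both mates of a pair may have been counted. The deposited comparison holds the authors' edgeR result for 10978 genes selected by FPKM above 2, as log2 values (fold change and CPM) and p-values (raw and adjusted). Its values were not used, only its gene names. Counts of the 10978 genes, 97.8% of all counts, were fitted with edgeR 4.0.16 in R 4.3.3 (TMM factors, whole library totals, quasi-likelihood test, genotype as the only term), with DESeq2 1.42.0 among the alternatives. Scripts were tested on simulated data. CPM used TMM-scaled totals, and FPKM the deposited gene widths. Positions came from GENCODE v44 lifted to GRCh37. Genes were named as members, called list genes, 5 tested neighbours of DTX3 on each side, related loci and cell markers. Named too were the 5 lowest Helz-null to WT ratios among genes of at least 1 CPM in WT cells. Some list genes that were not called were named to fill out their role. A gene first on the Notch list is not reported here and was left out of its counts. Members, lists and rules were chosen with earlier results of these data known.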

Additional observations from a re-analysis of the deposited data

How the results depend on the processing

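The edgeR analysis was repeated under 12 alternatives, and no result changed sign while called. Of the members, 3 were up-regulated. This was 2 with filterByExpr, with libraries thinned to the smallest total, with GC correction and with DESeq2, and 2 to 3 when 1 library was left out, NOTCH1 being the member lost each time. NOTCH1 ranged from 0.13 to 0.22 in log2FC and from 5.48e-04 to 0.126 in FDR. Of the 10 neighbours of DTX3, 3 were up-regulated with scaling by library size only, 2 were down-regulated with the likelihood ratio test, and 1 to 2 were up-regulated when 1 library was left out. Over all genes, calls were 1524 up and 1701 down, 1102 and 1288 with DESeq2, and 1027 to 1544 up and 1180 to 1659 down without 1 library. Scaling by library size only gave 2123 up and 1317 down, so that 61.7% of calls were up against 47.3%, and 14 in place of 10 list genes up. Same-numbered libraries did not deviate together (correlation 0.028, 2 pairs), but with so few libraries this cannot show whether the numbers pair them. With the replicate number as a block, 1677 genes were up and 1841 down, and 3 members were up, which changed no member's call. Leaving out 1 library leaves its group with a single library, which is assumed to vary like the other group. The calls of NOTCH1, RBPJ and DLL1 changed both with a library left out and with other settings on all 4 libraries. The low counts of DTX1 and DTX4 leave wide intervals.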
